A study of Macaca mulatta with 5 samples.

Results

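Cap mesenchyme (c30) is 1 of 37 cell clusters that the study named in single-cell RNA data from the fetal rhesus macaque kidney. Its members are all cells that carry this cluster name in the 5 rhesus libraries analysed, 1235 of 36039 cells. The deposited table also holds further rhesus and human libraries, which were not analysed. The name could not be checked against its markers SIX2, EYA1 and CITED1, because the deposited table has 0 columns of gene values. What can be measured is how many cells carry the name and where they lie in the UMAP embedding of the study, a map of arbitrary units in which cells with like transcriptomes are drawn near each other.

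The cap mesenchyme is the layer of nephron progenitors that condenses around each tip of the ureteric bud, the branching epithelium that becomes the collecting duct. Signals from the bud keep some of these cells dividing and push others to turn into epithelium, which forms the early nephron and later its podocytes and tubules. SIX2 is a transcription factor that holds cells in the progenitor state, EYA1 is a co-activator that acts with SIX2, and CITED1 is a transcriptional co-regulator that marks the least committed progenitors.

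The libraries were cortex-enriched cell suspensions of fetal rhesus kidney from the late second to the third trimester, with no treatment, strain or genotype given. Libraries 600 and 628 were made from cortex dissected by hand, taken from 2 donor kidneys, and digested with a cold-active enzyme mix. Libraries 623, 627 and 632 were made by vortexing kidney in a cold mix named after Bacillus licheniformis, which biases the suspension toward cortex. Gestational age and batch are not given for single libraries, and cannot be told apart from the way the suspension was made. The 5 libraries held 6839, 6329, 9816, 10502 and 2553 cells in the order 600, 628, 623, 627 and 632. Counts of molecules per cell were not in the table, so sequencing depth is unknown. Barcodes repeated between libraries touched 10 of the 1235 c30 cells, and 1 barcode was c30 in 2 libraries.

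The share of c30 was low in 1 library of each preparation and higher in the other 3. In dissected library 600, 138 cells or 2.02% carried the name (exact 95% binomial interval 1.70 to 2.38), and in dissected library 628 it was 299 cells or 4.72% (4.21 to 5.28). In vortexed library 623 it was 228 cells or 2.32% (2.03 to 2.64), in library 627 it was 452 cells or 4.30% (3.92 to 4.71), and in library 632 it was 118 cells or 4.62% (3.84 to 5.51). The intervals of libraries 600 and 623 overlapped each other and lay below those of libraries 628, 627 and 632. These intervals cover counting error only.

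Over the 5 libraries c30 made up 3.60% ± 1.32 of cells (SD, n = 5), which ranked 12 of 37 clusters by mean share. The highest library exceeded the lowest 2.34-fold. For NPC (c25), the other cluster placed here in the nephron progenitor class, the same figure was 32.6-fold. The relative spread of c30, its SD over its mean, was 0.366 and ranked 8 from the lowest of the 37. Among nephron-lineage cells only, meaning progenitors, early nephron, podocytes and tubule, c30 made up 2.98% in library 600, 8.07% in 628, 3.93% in 623, 9.36% in 627 and 9.48% in 632. The order of the libraries changed with this denominator, but 600 and 623 stayed lowest.

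No difference in c30 between hand dissection and vortexing could be shown. The mean share was 3.37% ± 1.91 (SD, n = 2) in dissected and 3.75% ± 1.25 (n = 3) in vortexed libraries, and the values overlapped. The log2 odds ratio of dissected over vortexed was -0.22 (95% interval -1.94 to 1.49, limma adjusted p = 0.892 over 37 clusters). The exact two-sided permutation test of the share itself gave p = 0.8, where 2 libraries against 3 allow no p below 0.1. As background, limma called 0 of 37 clusters at an adjusted p of 0.05 (0%), and 5 of 37 had an unadjusted p below 0.05 (13.5%). Shares did not overlap between the preparations for 11 of 37 clusters (29.7%). All 11 were higher in the dissected libraries, among them Differentiated NPC (c19) and Collecting Duct (c13). The c30 difference turned to 0.41 without library 600 and was -0.85 without library 628, so its sign rested on single libraries.

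**Figure D1:**
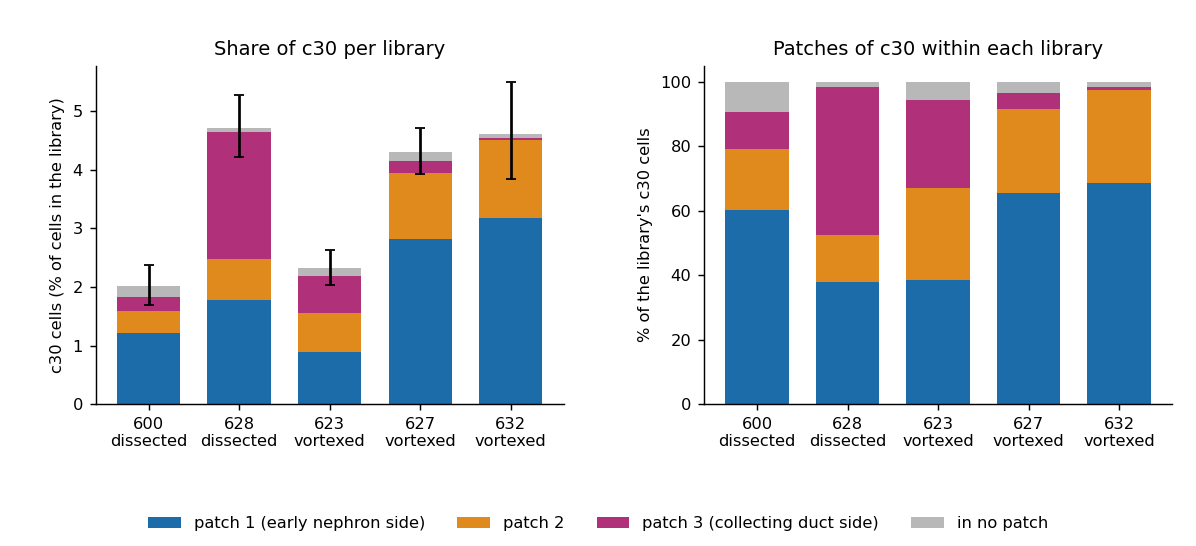
Left, c30 cells as a percentage of all cells in each library, with exact 95% binomial intervals as error bars. Right, the same c30 cells split by patch of the embedding as a percentage of the library's c30 cells; the patch on the collecting duct side holds 45.8% in library 628 and 0.847% in library 632.

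In the embedding the c30 cells did not form 1 compact group. Cells were joined into a patch when linked at a distance of 0.3 units, with at least 5 cells around a core cell, a choice made after the map had been seen. This gave 3 patches with 661, 287 and 238 cells, and 49 cells (3.97%) in no patch. Patch 1 ran beside the early nephron clusters, patch 2 lay below Differentiated NPC (c19) on the map, and patch 3 sat at the edge of Collecting Duct (c13), the urine-collecting end of the kidney by its name. Patch 3 was the most distinct of them. It held 237, 239 and 241 cells when the distance was set to 0.25, 0.35 and 0.4, of which 237, 238 and 238 were the same cells. Patches 1 and 2 merged at 0.35, and at 0.5 nearly all c30 cells, 1214 of them, were linked.

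**Figure D2:**
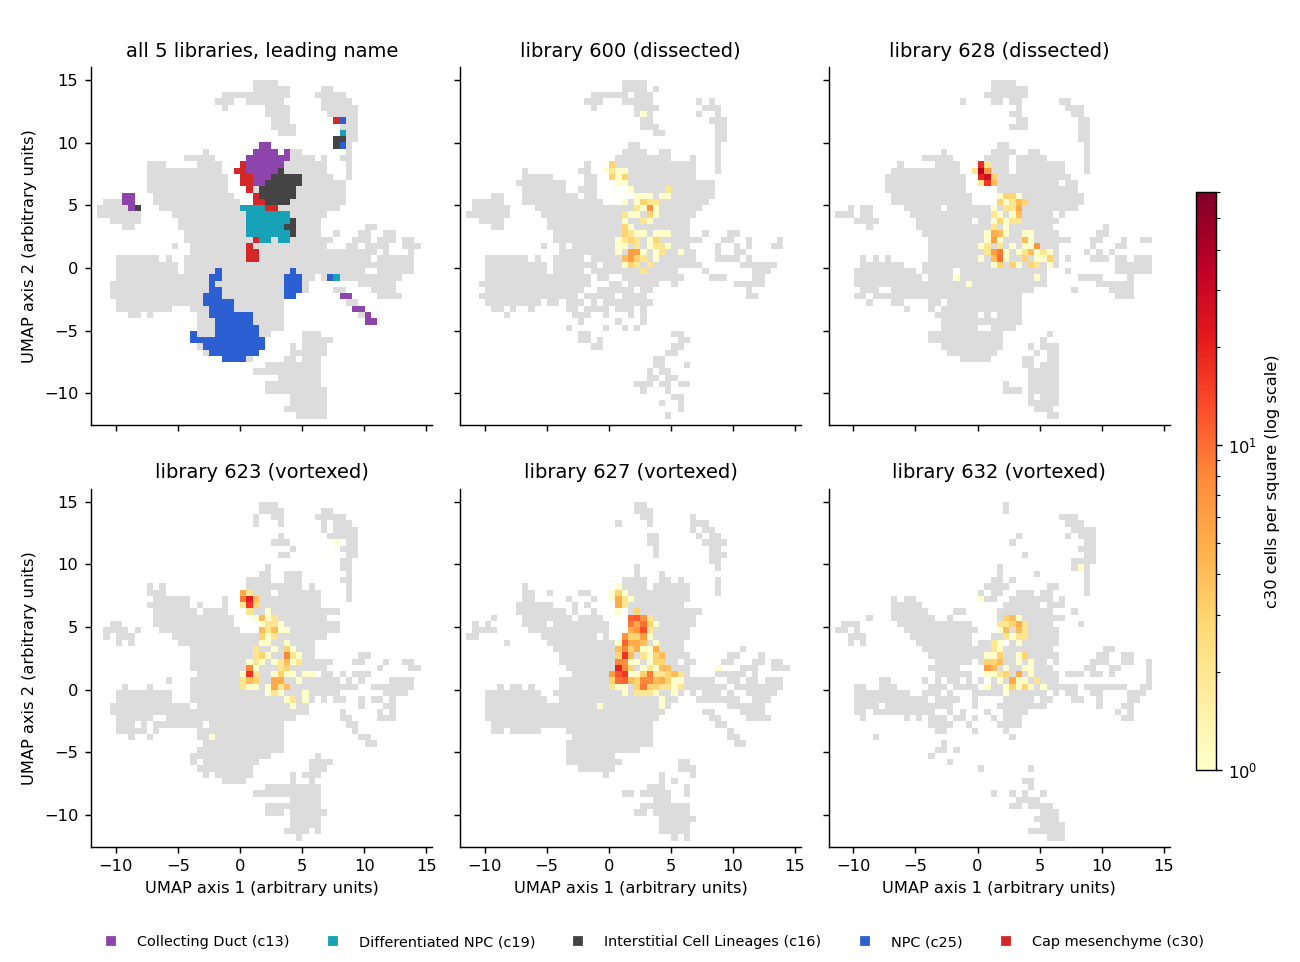
Position of cells in the study's UMAP embedding (both axes in arbitrary units), in squares of 0.5 units. Grey squares hold cells of any name; in the first panel, colour marks squares where the leading of the 5 listed clusters holds more than 30% of cells; in the other panels, colour gives the number of c30 cells per square on a log scale. A dense c30 spot beside the collecting duct cells appears in libraries 628 and 623, and is thin in 627 and nearly empty in 632.

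The libraries differed most in the patch beside the collecting duct. It held 16 of 138 c30 cells in library 600 (11.6%), 137 of 299 in library 628 (45.8%), 62 of 228 in library 623 (27.2%), 22 of 452 in library 627 (4.87%) and 1 of 118 in library 632 (0.847%). The values of the preparations overlapped, with a mean of 28.7% ± 24.2 (SD, n = 2) in dissected and 11.0% ± 14.2 (n = 3) in vortexed libraries. Over all 5 libraries the mean was 18.1% ± 18.5, and 11.1% without library 628. A rule that does not use patches, more than 50% of a cell's 15 neighbours in collecting duct clusters, picked 243 cells, among them all 238 of patch 3.

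Libraries with like numbers of collecting duct cells differed in this patch. Per 100 Collecting Duct (c13) cells, library 600 held 4.92 patch 3 cells, library 628 held 40.2, library 623 held 20.6, library 627 held 16.9 and library 632 held 1.64. Libraries 600 and 628, both dissected, had 325 and 341 c13 cells, near the same number, yet 16 and 137 patch 3 cells. No test was made on the patches, because they were drawn after the positions had been seen.

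With patch 3 left out, c30 made up 1.78% of library 600, 2.56% of 628, 1.69% of 623, 4.09% of 627 and 4.58% of 632. Library 628, the highest in total c30, then lay below both 627 and 632. The log2 odds ratio of dissected over vortexed for these remaining cells was -0.57 (95% interval -2.29 to 1.15, limma adjusted p = 0.737).

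Patch 1 was the largest part of c30 in 4 of 5 libraries, all but library 628. It held 60.1% of c30 cells in library 600, 37.8% in 628, 38.6% in 623, 65.5% in 627 and 68.6% in 632. Patch 2 held 18.8%, 14.7%, 28.5%, 26.1% and 28.8% in the same order. Both patches therefore drew cells from every library.

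The cells around c30 were read from the 15 nearest cells of the same library that carry another name and are not named by a cell cycle phase. Cluster names and positions come from the same gene values, so these neighbour shares are descriptions and no test of c30 against other clusters was made. Early nephron clusters, the differentiating progeny of progenitors, led on average with 43.9% ± 12.1 of neighbours (SD, n = 5), against 15.6% of all reference cells in a library. They made up 59.1% of c30 neighbours in library 600, 32.5% in 628, 40.0% in 623, 54.0% in 627 and 33.7% in 632. Each value was above the reference share of its own library, by 1.999-fold in 628 up to 3.46-fold in 627. Another class led in library 628, where collecting duct clusters made up 45.8%, and in 632, where stroma made up 35.4%.

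By the mean over libraries, Differentiated NPC (c19) was the most frequent single neighbour. It led only in libraries 600 and 627, while Collecting Duct (c13) led in 628 and 623 and Interstitial Cell Lineages (c16) in 632. Cells of c19 made up 33.6% in library 600, 18.1% in 628, 19.2% in 623, 25.6% in 627 and 13.4% in 632, a mean of 22.0% ± 7.80 against 5.42% of reference cells. The centre of c19 was also the nearest cluster centre to that of c30 in each of the 5 libraries. A centre is the median position of all cells of a cluster, so that of c30 averages over its patches. In library 628 c19 lay 2.26 units away and c16 2.57, while c19 lay 0.85 to 1.08 units away in the others. Broad proximal diff (c17), cells on the way to proximal tubule by their name, made up 18.0% ± 5.48 against 7.02%. Differentiated NPC (c14) made up only 3.82% ± 1.502, close to its 3.16% of reference cells. It was above its reference share in 5 of 5 libraries, and reached 6.21% against 4.81% in library 632. The early nephron neighbourhood of c30 was thus made mainly of c19 and c17, with a small part of c14. With clusters named by cell cycle phase kept, c17 made up 9.73%. By preparation this was 8.02% ± 4.31 (SD, n = 2) against 6.72% of reference cells in dissected libraries. In vortexed ones it was 10.9% ± 2.08 (n = 3) against 5.41%. The dissected mean thus lay within 1 SD of its reference share.

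Collecting Duct (c13) was the second most frequent neighbour on average, with the largest SD over libraries of the 5 leading clusters. It made up 13.7% in library 600, 45.6% in 628, 27.7% in 623, 5.46% in 627 and 2.60% in 632, a mean of 19.03% ± 17.8 against 3.99% of reference cells. In library 632 it did not exceed its reference share of 2.64%, and without library 628 the mean was 12.4%. Nearly all of this came from patch 3, whose neighbours were 96.6% c13. Intercalated cells, the acid-base cells of the duct, added 0.185% as Intercalated cell (c11) and 0% as Intercalated cell (c9), and the collecting duct clusters together made up 19.2% ± 17.9.

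Interstitial Cell Lineages (c16), a stromal name, made up 14.8% ± 8.47 of c30 neighbours against 8.67% of reference cells and was above its reference share in 5 of 5 libraries. The highest value, 28.0%, was in library 632, where c16 was also most abundant among reference cells, at 21.7%. The stromal class as a whole made up 19.3% ± 10.0, so c16 was the larger part of it. Proximal tubule (c18) made up 8.40% ± 4.93 against 11.1%, above its reference share only in library 632. Proximal tubule (c7) made up 8.31% in library 632, above its reference share of 5.94%, and 0.981% to 2.22% in the other libraries. The remaining tubule clusters were rarer beside c30, with mean shares for Loop of Henle (c15) of 0.702%, Thick ascending limb (c12) of 0.251%, Proximal tubule (c8) of 0.238%, Proximal tubule (c6) of 0.212% and Distal convoluted tubule (c10) of 0.0379%. Podocytes, immune cells and endothelium made up 0.0861%, 0.136% and 0.163% of neighbours.

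**Figure D3:**
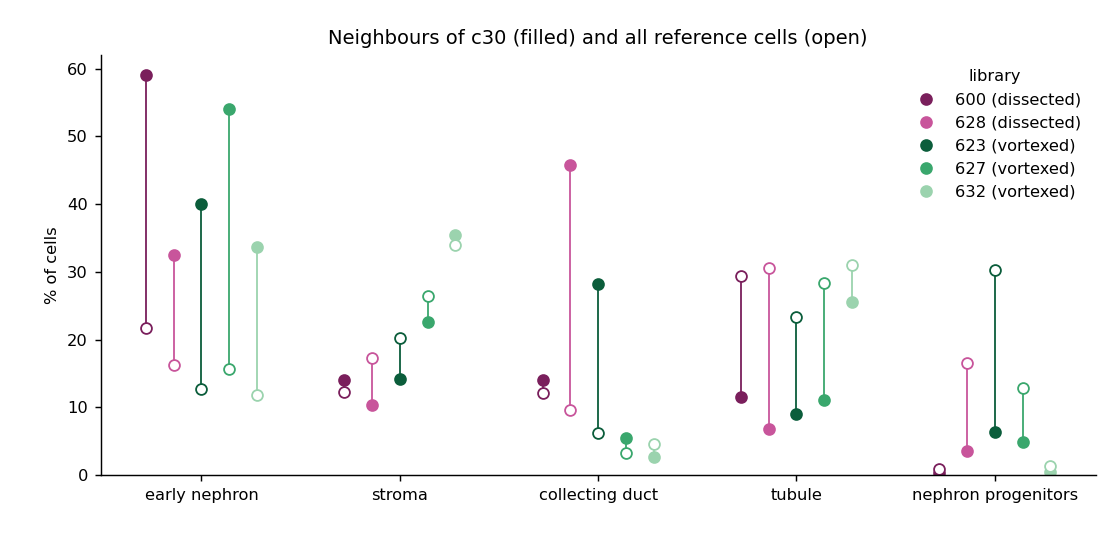
Percentage of the nearest differently named cells of c30 in each class (filled circles) and percentage of the class among all reference cells of the same library (open circles), 1 pair per library. Cells named by a cell cycle phase are left out. Early nephron is above its open circle in each library, from 32.5% to 59.1%, and nephron progenitors, here NPC (c25) only, lie below theirs.

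NPC (c25) lay away from c30, although both were placed here in the nephron progenitor class. It made up 0.290% of c30 neighbours in library 600, 3.57% in 628, 6.35% in 623, 4.93% in 627 and 0.452% in 632, below its share of reference cells in all 5 libraries. By the distance between cluster centres, c25 ranked 14 of 28 clusters in library 600, 23 of 27 in 628, 19 of 28 in 623, 13 of 30 in 627 and 10 of 26 in 632. The neighbours of c25 were 57.3% ± 21.4 Fibroblast (c26) and 18.6% ± 14.8 Interstitial Cell Lineages (c24). Only 4.56% ± 3.55 of them were early nephron, against 43.9% for c30.

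The patches kept company with different cells. Around patch 1, c19 made up 34.9% of neighbours, c17 made up 23.4% and c16 made up 22.6%. Around patch 2 no single name dominated, with 25.8% c17, 14.1% Proximal tubule (c18), 13.8% c19 and 7.80% Fibroblast (c26). Patch 3 had 96.6% c13, 2.13% NPC (c25) and 1.26% c17. These values pool cells over libraries, and library 627 gave 44.8% of patch 1 and 41.1% of patch 2. Library 628 gave 57.6% of patch 3. In the libraries with at least 20 patch 3 cells, collecting duct clusters made up 96.6% of its neighbours in 628, 94.4% in 623 and 99.7% in 627. Patch 1 was less even, with early nephron at 71.8% in library 600, 72.3% in 628, 66.3% in 623 and 63.8% in 627, but 36.05% in 632. Stroma around patch 1 in library 632 was level with it, at 36.13%. There c16 made up 35.97% and c19 made up 15.1%. Around patch 2 early nephron made up 62.1% in library 600, 33.5% in 628, 43.4% in 623, 42.5% in 627 and 30.8% in 632. In library 632 stroma led around patch 2, at 36.1%. All these values leave out clusters named by cell cycle phase. With those kept, phase-named clusters made up 25.7% around patch 1, 23.7% around patch 2 and 29.2% around patch 3. Collecting duct clusters then made up 67.9% around patch 3.

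**Figure D4:**
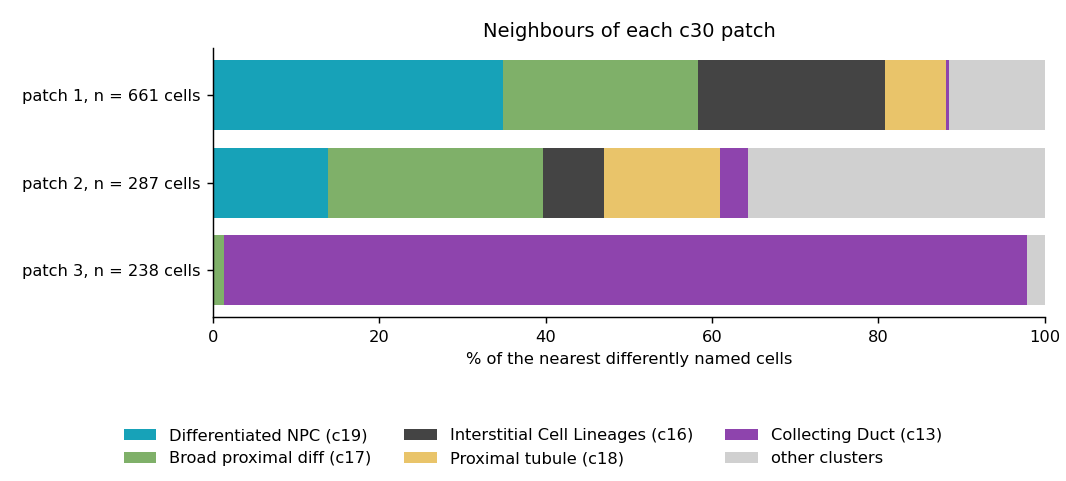
Percentage of the nearest differently named cells (horizontal axis) around each patch of c30, over the cells of all 5 libraries, each searched within its own library. Cells named by a cell cycle phase are left out. Among the rest, patch 3 is bordered almost wholly by Collecting Duct (c13), patch 1 by c19, c17 and c16, and patch 2 by a mix.

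Seen from the other side, c30 was a large part of the surroundings of several clusters. It made up 38.2% ± 11.5 of the neighbours of Differentiated NPC (c19), 36.9% ± 18.98 for Collecting Duct (c13), 29.4% ± 14.9 for M-phase (c27), 28.8% ± 14.4 for Interstitial Cell Lineages (c16) and 18.5% ± 6.37 for G2-M phase (c28). These are the 5 clusters that held c30 most often. Among the neighbours of c13 it reached 33.2% in library 600, 52.2% in 628, 47.5% in 623 and 46.1% in 627, but 5.36% in 632. Around c14 it made up 5.94% ± 1.83.

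Cells of c30 were also mixed with other names. Of the 15 nearest cells of any name, 18.9% were themselves c30 in library 600, 49.3% in 628, 33.6% in 623, 36.3% in 627 and 29.3% in 632. That is 6.40-fold (632) to 14.5-fold (623) above the c30 share of the library. The mean of 33.5% ± 11.0 stood beside 50.1% ± 27.7 for c25, 50.6% ± 9.83 for c14 and 52.6% ± 18.97 for c19. These clusters have other sizes, and this share rises with the number of cells. Over the cluster's share of the library, it was 3.22-fold to 39.5-fold for c25. For c14 it was 8.25-fold to 35.8-fold, and for c19 7.63-fold to 20.7-fold. The c14 cluster had fewer cells than c30 in libraries 628, 623, 627 and 632. Its share of own cells there was 46.7%, 60.8%, 54.6% and 35.6%. Among c30 cells alone, those of the same library lay together somewhat more than their number gives, from 1.23-fold in library 627 to 1.71-fold in 628. Within patch 1 this was 1.09-fold to 1.59-fold, and within patch 2 it was 1.00-fold to 1.74-fold.

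When clusters named by cell cycle phase were kept among the neighbours, M-phase (c27) lay beside c30 mainly in the dissected libraries. It made up 11.9% of neighbours in library 600 and 23.1% in 628, against 1.90% in 623, 2.95% in 627 and 2.66% in 632. The preparations did not overlap, although M-phase cells were no more common among reference cells of the dissected libraries, with 2.01% and 3.85% against 3.12%, 5.10% and 1.93%. The means, 17.5% ± 7.88 (SD, n = 2) and 2.50% ± 0.541 (n = 3), gave an exact two-sided permutation p of 0.1, the smallest possible, and an adjusted p of 0.9 over the 36 clusters compared. This cluster was chosen for its values, so the p is no independent evidence. As background, 4 of 36 clusters (11.1%) had neighbour shares that were higher in both dissected libraries than in all vortexed ones, and 0 of 36 (0%) passed an adjusted p of 0.05. Loop of Henle (c15), Distal convoluted tubule (c10) and Endothelial (c5) were the others, each below 1% on average and named here only to complete the count. As many clusters, 4 of 36 (11.1%), were lower in both dissected libraries than in all vortexed ones. These were G2-M phase (c29), Interstitial Cell Lineages (c24), Monocyte (c34) and Epithelial (c23). For c29 the shares were 1.69% in library 600 and 2.41% in 628, against 11.6%, 13.5% and 2.54% in 623, 627 and 632. All phase-named clusters together overlapped, with 20.8% and 36.5% against 20.8%, 26.9% and 7.18% in the same order.

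M-phase neighbours were found around all 3 patches, and the dissected libraries stood higher around patch 1. In patch 1 they made up 14.2% in library 600 and 18.8% in 628, against 0.227% in 623, 1.91% in 627 and 1.56% in 632. In patch 3 they made up 33.4% in library 628, 2.80% in 623 and 0.909% in 627, beside 14.2% over the 16 cells of 600 and 20% over the 1 cell of 632. In patch 2 the values overlapped, with 8.97% and 4.39% against 3.28%, 5.76% and 4.90%. Without patch 3, the dissected mean exceeded the vortexed mean by 10.6 percentage points, and without library 628 by 9.43 points. The G2-M phase (c28) neighbours of c30 were above their reference share in 5 of 5 libraries, at 7.58% ± 3.59 against 3.79%. G2-M phase (c29), at 6.35% ± 5.71 against 7.04%, was above it in 2.

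Against NPC (c25) and the other nephron-lineage clusters compared, c30 had no steady ratio. Cells of c30 outnumbered NPC (c25) 2.65-fold in library 600 and 3.93-fold in 632, while c25 outnumbered c30 2.85-fold in 628, 10.7-fold in 623 and 2.05-fold in 627. The mean log2 ratio of c30 to c25 was -0.52 ± 2.21 over 5 libraries (exact sign-flip test, two-sided, p = 0.625, adjusted p = 0.875 over 5 ratios). It turned to 0.21 without library 623.

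Both Differentiated NPC clusters together held more cells than c30 in 4 of 5 libraries, from 1.45-fold in 632 to 6.11-fold in 600, and 0.927-fold as many in 627. The mean log2 ratio of c30 to them was -0.999 ± 1.02 (exact sign-flip p = 0.125, adjusted p = 0.469). Broad proximal diff (c17) also exceeded c30 in 4 of 5 libraries, all but 632, with a mean log2 ratio of c30 to c17 of -0.72 ± 0.85 (exact sign-flip p = 0.1875, adjusted p = 0.469). Without library 600 these means were -0.60 and -0.42. With 5 libraries the exact sign-flip test cannot reach a p below 0.05, and no ratio passed.

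Podocytes, the filtering cells of the glomerulus, outnumbered c30 8.79-fold in library 600 and 1.10-fold in 623, and were fewer in the other libraries. The mean log2 ratio of c30 to Podocyte (c20) was -0.30 ± 1.65 (exact sign-flip p = 0.875, adjusted p = 0.875), and 0.41 without library 600. For Collecting Duct (c13), c30 was 0.425-fold as frequent in library 600, 0.877-fold in 628 and 0.757-fold in 623, and 3.48-fold in 627 and 1.93-fold in 632. The mean log2 ratio of c30 to c13 was 0.18 ± 1.19 (exact sign-flip p = 0.8125, adjusted p = 0.875), and it turned to -0.22 without 627 and to -0.0071 without 632. The libraries with more c30 than c13 cells, 627 and 632, were those with the smallest part of c30 in patch 3.

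**Figure D5:**
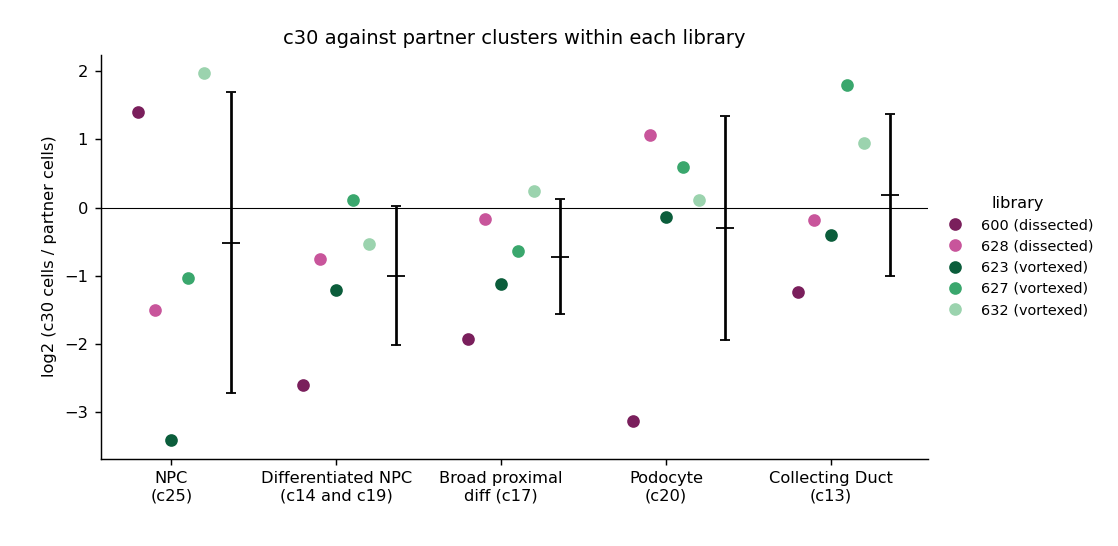
Log2 ratio of c30 cells to cells of 5 partner clusters (vertical axis; 0 means equal numbers), 1 circle per library, with the mean and SD over 5 libraries in black. The means run from -0.999 for Differentiated NPC (c14 and c19) to 0.18 for Collecting Duct (c13), and each of the 5 sets of circles lies on both sides of 0.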

How the data were processed

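The authors made single-cell RNA libraries (10x Genomics 3' version 3) from 5 rhesus cell suspensions, per the labels' protocols. The submitters' processing notes name Cell Ranger 6.0.1 and Seurat as tools and hg19 as a build, with no roles. The sources used here do not give how cells were filtered, doublets treated, species integrated or clusters made. The deposited table has 1 row per cell with a cluster name, a library, a species and 2 UMAP position scores, which the authors made from rhesus and human cells together, per the file headers and the design text. Sequencing depth is unknown.

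Rows were used where the library name matched a title. The 11 further library names, with 58227 rows, belong to rhesus as well as human libraries. They were not analysed here, so no species balance is given. The 5 libraries are thus not all the rhesus cells of the study. Libraries were grouped by the preparation that the protocol gives for their numbers. Separate animals are not stated for all libraries, and p-values therefore cover only the spread from library to library, possibly a technical one.

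Cells were counted per cluster and library. Preparations were compared with limma 3.58.1 (R 4.3.3), fitted to the log2 odds of each share after 0.5 cells were added. Clusters of at least 10 cells entered, with Benjamini-Hochberg adjustment and a threshold of 0.05. The step was tested on simulated data in which only clusters smaller than c30 were changed. The spread between libraries was set there, not taken from the data. That simulation does not show what the fit can detect for c30. Neighbours were the 15 nearest cells of the same library, where a cluster or patch had at least 20 cells. Clusters were joined into classes by name, early nephron being Differentiated NPC (c14, c19) and Broad proximal diff (c17). Patches were found by DBSCAN (scikit-learn 1.9.0) over c30 cells of the 5 libraries together. The text names c30, its ratio partners, the 5 leading neighbours in each direction, and nephron-lineage or collecting duct clusters. Members, classes and tests were chosen with earlier results of these data known; the patches and the M-phase comparison were added after the positions had been seen.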

Additional observations from a re-analysis of the deposited data

Results flagged for a closer look

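Of 20 quantities compared over the 5 libraries, regardless of preparation, 2 had a library whose gap to the nearest other library was more than 0.71 of the whole range (Dixon's test; chance flags about 1 in 20). The log2 ratio of c30 to Podocyte (c20) was -3.14 in library 600 and -0.14 to 1.06 in the other libraries. Tubule clusters made up 25.6% of c30 neighbours in library 632 and 6.73% to 11.4% in the others.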

How the results depend on the processing

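Over 21 results and 169 alternatives, 162 kept their direction and side of the threshold, or moved by less than 1 SD between libraries. For shares and neighbour values, leaving out 1 of 5 libraries cannot move the mean by 1 SD. Those alternatives could only count as kept, so the total is no measure of robustness. Collecting duct neighbours, for example, went from 19.2% to 12.6% without library 628 and counted as kept. The c30 share of 3.60% was 6.76% of nephron-lineage cells and 2.94% without patch 3, and Broad proximal diff (c17) made up 9.73% of neighbours with phase-named clusters kept. With 1 library left out, the log2 odds ratio of dissected over vortexed ranged from -0.85 (without 628) to 0.41 (without 600). In the same way, the mean log2 ratio of c30 ranged from -1.14 (without 632) to 0.21 (without 623) against NPC (c25), from -0.64 (without 628) to 0.41 (without 600) against Podocyte (c20), and from -0.22 (without 627) to 0.54 (without 600) against Collecting Duct (c13), where it was -0.0071 without 632. The cause was not tested. The centred log-ratio moved the median of all clusters from 0.25 to -0.012 and gave -0.47 for c30. The count of clusters past the threshold was 0 under all 11 alternatives. No paired analysis was possible because the preparations share no library numbers. Neighbour shares by single cluster were not recomputed with all libraries searched together.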
